A study of Mus musculus with 10 samples.

Results

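The receptor complex that receives a Wnt signal was followed here through the transcripts of 10 mouse genes, Fzd1 to Fzd8 and Lrp5 and Lrp6. They were taken by name from a table of 16875 gene names, and all 10 were present in it. The table came from RNA sequencing of 10 macrodissected colon tumors that had been induced in C57BL/6 mice by AOM (azoxymethane, a carcinogen) followed by 3 cycles of DSS (dextran sulfate sodium, an irritant of the colon given in the drinking water). The 5 control tumors, titled Wls WT, were Wls flox/flox, and the 5 Villin-Wls cKO tumors carried Villin-Cre ERT2 together with Wls flox/flox. Wls is the transporter that carries Wnt ligands to the cell surface, and Villin-Cre ERT2 is a tamoxifen-dependent recombinase that is active in intestinal epithelial cells, so the deletion is aimed at those cells and not at stroma or immune cells. The cKO mice received 5 tamoxifen injections once tumors had formed, and the study's text places the sequenced cKO tumors at 30 days after the first injection. By the study's account, control tumors came without tamoxifen, so genotype and tamoxifen cannot be told apart. How many mice gave the tumors is not stated in the sources used here. The question asked of these 10 genes is whether transcripts for receiving Wnt differ between tumors with and without epithelial Wnt secretion.

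Frizzled proteins cross the membrane repeatedly and bind Wnt through a cysteine-rich domain outside the cell. LRP5 and LRP6 are single-pass members of the LDL receptor family that bind the same ligand at another site. When Wnt joins both, Dishevelled docks on the Frizzled inside the cell, the tail of the LRP protein is phosphorylated and recruits Axin, and β-catenin is spared from degradation. In the intestine this pathway maintains the stem cells of the crypt, and colon cancers often activate it below the receptors.

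The 2 coding elements that link these receptors to the inside of the cell are shown first, because they are the feature that each family shares. The KTXXXW motif of Frizzled proteins is a Dishevelled contact. It was searched in frame in the coding sequences of GENCODE M21 on build GRCm38, and each of the 8 Frizzled members held exactly 1 match. The sequences below run 5′ to 3′ on the coding strand, in coding exons, with the codons of the fixed residues in capitals and those of the variable residues in lower case. That of Fzd8 is not shown.
Fzd1 (chr5:4755706-4755723, minus strand): AAGACActgaattccTGG
Fzd2 (chr11:102606373-102606390, plus strand): AAGACActgcactcgTGG
Fzd7 (chr1:59484607-59484624, plus strand): AAGACCctgcagtcaTGG
Fzd5 (chr1:64735011-64735028, minus strand): AAGACTctggagtctTGG
Fzd4 (chr7:89408241-89408258, plus strand): AAAACTcttcacacgTGG
Fzd3 (chr14:65212107-65212124, minus strand): AAGACAtgctttgaaTGG
Fzd6 (chr15:39033949-39033966, plus strand): AAGACGtgcacagaaTGG
The Fzd1, Fzd2, Fzd7 and Fzd5 sites each begin their variable part with a ctg codon, whereas Fzd3 and Fzd6 begin it with tgc and end it with gaa. The motif starts at codon 620 of 642 in Fzd1 and at codon 548 of 570 in Fzd2, close to the end of the protein, but at codon 498 of 709 in Fzd6 and at codon 502 of 666 in Fzd3. In the LRP co-receptors the phosphorylated tail carries repeats of proline and serine or threonine, and 3 in-frame matches were found in each gene. The search asked for 3 prolines, serine or threonine, proline, any residue, and serine or threonine. The first match of each is shown, with the codon of the unrestricted residue in lower case.
Lrp5 (chr19:3586451-3586471, minus strand): CCACCCCCGTCCCCGgccACA
Lrp6 (chr6:134453618-134453638, minus strand): CCACCACCATCGCCTgccACA

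The gene models differ in the same way. Fzd1, Fzd2, Fzd5, Fzd7 and Fzd8 have 1 coding exon, Fzd4 has 2, Fzd3 and Fzd6 have 6 each, and Lrp5 and Lrp6 have 23 each. Fzd6 lies at chr15:39006034-39038188 on the plus strand, where the annotation also places the long non-coding RNA Gm26704 on the other strand. Fzd3 and Fzd5 also overlap annotated non-coding genes or a pseudogene, and no member overlaps another protein-coding gene. Since use of strand in the quantification is not stated, reads of such overlapping genes cannot be told apart.

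Values are FPKM, by definition a fragment number divided by transcript length and by the mapped total of the tumor. Levels can thus be compared between genes. How Cuffdiff scaled the tumors against each other is not stated in the sources used here. Read depth is unknown, because the values are not counts and no read numbers could be recovered. The deleted gene followed the labels, with Wls between 61.3 and 79.9 FPKM in the control tumors and between 2.03 and 11.7 in the cKO tumors (log2 change -3.59, limma adjusted p = 0.000337). The highest cKO values of Wls, 11.6 and 11.7 FPKM, were in cKO tumors 2 and 3. Those tumors also held Krt5, a keratin of stratified squamous epithelium, at 469.5 and 668.8 FPKM, against 0.315 or less in the other 8 tumors. In addition, Xist, the RNA of the inactive X chromosome, lay between 439 and 701 FPKM in the cKO tumors and was 0.420 or less in the control tumors, so that sex, genotype and tamoxifen cannot be told apart in any comparison here. Of 11 epithelial markers, 11 were tested and 1, Krt20, was called higher. All 11 had a log2 change above 0, with a median of 0.25. An unadjusted limma p under 0.05 was reached by 6 of them, against 25.7% of all genes tested. Of the markers of other cells, 4 of 6 for T cells, 3 of 7 for goblet cells and 1 of 5 for macrophages were called higher, where 6.12% of all genes tested were. The macrophage call was Cd14, and the median log2 change of the 5 macrophage markers was 0.052, with 2 of them below 0. Without cKO tumors 2 and 3, none of 5 T cell or 5 macrophage markers and 2 of 7 goblet cell markers were called higher by limma. Of 16599 genes tested in that fit, 655 were called higher. The other T cell marker, Cd8a, was not tested there, because its mean over the remaining tumors was under 0.5 FPKM. It measured 0.384, 1.14 and 1.41 FPKM in cKO tumors 1, 4 and 5, and 0.184 FPKM at most in control tumors. Of the 42 fibroblast, smooth muscle, endothelial, B and plasma cell, neutrophil, squamous and erythrocyte markers tested, 0 were called by limma in either direction. An unadjusted limma p under 0.05 was reached by 7, all higher in cKO tumors. They were 3 of 4 markers of B and plasma cells and 4 of 5 of neutrophils.

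All 10 receptor genes were expressed above 0 in every tumor. Lrp5 was the highest in both groups, with a mean of 38.2 ± 5.29 FPKM (SD, n = 5) in control and 34.6 ± 1.61 in cKO tumors. Fzd1 was the highest of the 8 Frizzled members, at 15.0 ± 1.13 and 17.7 ± 2.48 FPKM. At the other end stood Fzd3, at 0.318 ± 0.102 and 0.624 ± 0.208 FPKM. In control tumors the order of mean levels was Lrp5, Fzd1, Lrp6, Fzd6, Fzd5, Fzd7, Fzd2, Fzd8, Fzd4 and Fzd3. Among neighbours in that order, the ranges over tumors did not overlap between Lrp5 and Fzd1, Fzd6 and Fzd5, Fzd7 and Fzd2, and Fzd4 and Fzd3, and the other neighbours overlapped. In cKO tumors the mean of Fzd5 stood above that of Fzd6, and the means of Fzd4 and Fzd8 above that of Fzd2. Fzd8 exceeded Fzd2 in only 2 of 5 cKO tumors, and their medians stood the other way (1.64 and 2.01 FPKM). Neighbours without overlap in cKO tumors were Lrp5 and Fzd1, Fzd1 and Lrp6, and Fzd7 and Fzd4.

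**Figure D1:**
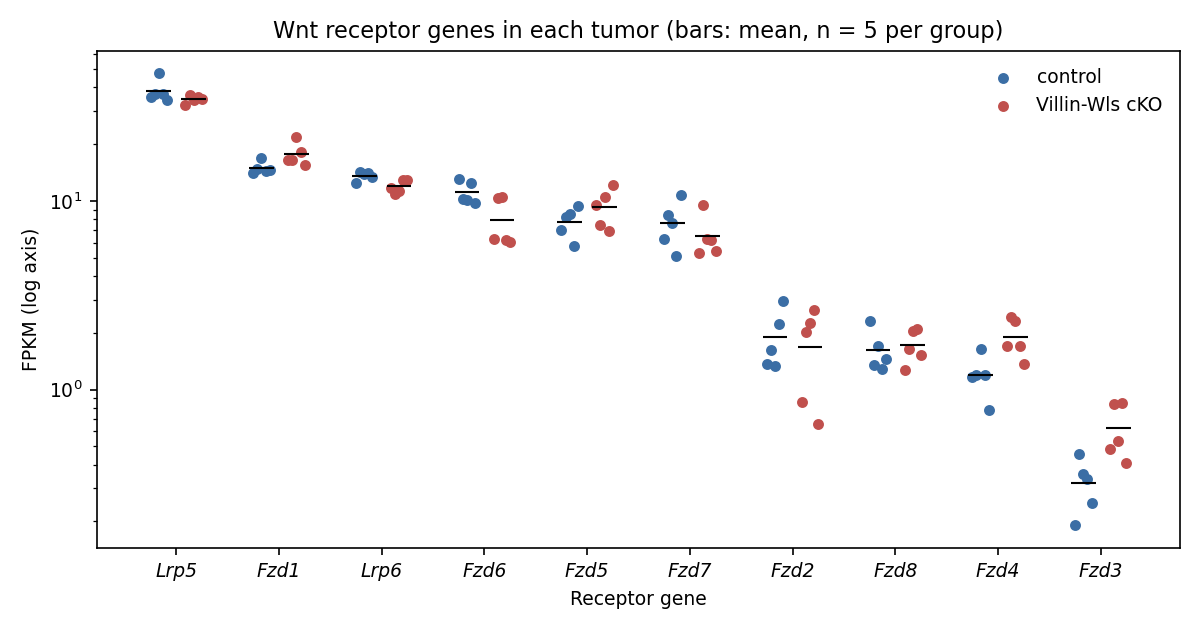
FPKM of the 10 receptor genes in each tumor, on a log axis, with 5 control and 5 Villin-Wls cKO tumors per gene; each point is 1 tumor and short lines are group means. Lrp5 is highest and Fzd3 lowest in both groups, and the points of control and cKO tumors overlap for every gene.

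None of the receptor genes was called different between the groups. Of the 9 that passed the filter of a mean of at least 0.5 FPKM over the 10 tumors, 0 were called higher and 0 lower by limma on log2(FPKM + 1), at a Benjamini-Hochberg adjusted p under 0.05 over all genes tested. Of all 16757 genes tested, 10.9% were called, 1026 (6.12%) as higher and 796 (4.75%) as lower in cKO tumors. With every tumor rescaled to the same FPKM sum the split was 1385 higher and 412 lower, and after quantile normalization it was 893 higher and 1125 lower. At an unadjusted limma p under 0.05 there were 4 of the 9, Fzd1 and Fzd4 with higher and Fzd6 and Lrp6 with lower mean values in cKO tumors, where 25.7% of all genes reached that level. The median log2 change was -0.13 over the 9 tested members and 0.0073 over all genes tested. No member had groups without overlap, against 10.1% of all genes tested. Since the tumors are mixtures, fewer cells of a type and less RNA per cell cannot be told apart for any of these genes. A p above the threshold does not show equal levels, and 95% intervals are therefore given with each change.

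**Figure D2:**
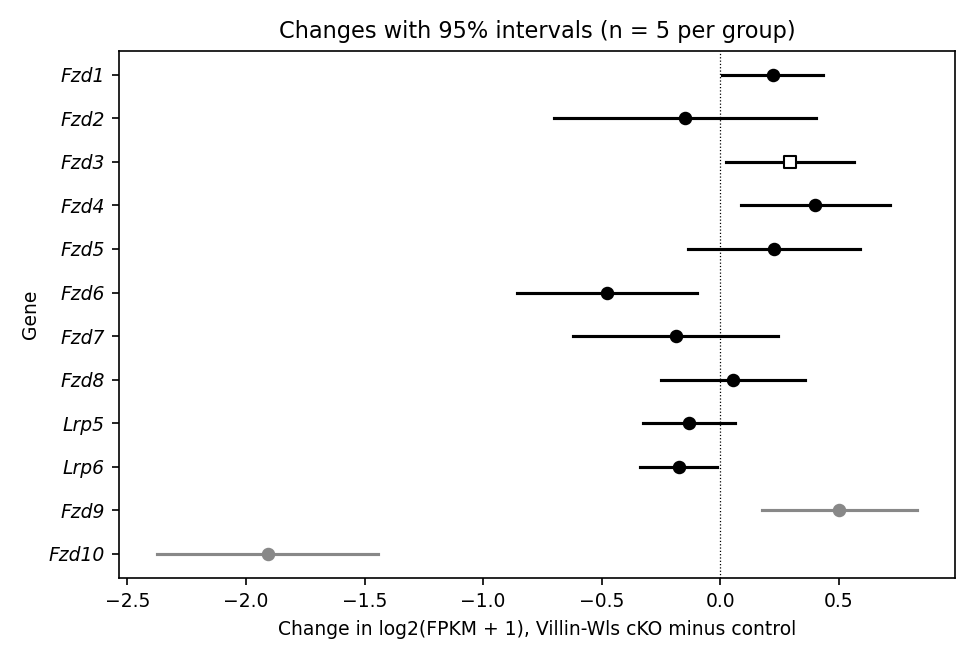
Log2 change of log2(FPKM + 1), cKO minus control, with bars for the 95% confidence interval from limma; filled black points are members, grey points are Fzd9 and Fzd10, and the open square is Fzd3 from the fit without the expression filter. The intervals of Fzd1, Fzd4, Fzd6, Lrp6, Fzd9, Fzd10 and the unfiltered Fzd3 leave out 0, and Fzd10 lies far to the left, at -1.91.

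Fzd1 is a Frizzled linked to canonical signalling through β-catenin. In the control tumors 1 to 5 it measured 14.0, 14.8, 16.9, 14.4 and 14.6 FPKM. In the cKO tumors 1 to 5 it measured 16.5, 16.5, 21.8, 18.2 and 15.5 FPKM. Control tumor 3 was the highest of its group, and cKO tumors 3 and 4 lay above all control tumors while the other 3 lay inside the control range. The ratio of means was 1.18. The log2 change was 0.22 (SE 0.096, 95% interval 0.0077 to 0.43, limma adjusted p = 0.1795, exact permutation p = 0.0317 before adjustment), which did not pass the test.

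Fzd2 and Fzd7, close relatives of Fzd1, had lower means in cKO tumors and did not pass either. Fzd7, which is known as a receptor of intestinal stem cells, measured 6.31, 8.44, 7.62, 5.10 and 10.8 FPKM in the control tumors. Its cKO values were 5.31, 9.56, 6.31, 6.17 and 5.40 FPKM, with tumor 2 well above the other 4 and all of them inside the control range. The log2 change of Fzd7 was -0.19 (SE 0.19, 95% interval -0.62 to 0.24, limma adjusted p = 0.602). It was -0.067 without control tumor 5, -0.30 without control tumor 4 and -0.32 without cKO tumor 2. Fzd2 ranged from 1.33 to 2.94 FPKM in control tumors and from 0.653 to 2.64 in cKO tumors, where tumors 1 and 5 were below all control tumors. Its log2 change was -0.15 (SE 0.25, 95% interval -0.70 to 0.40, limma adjusted p = 0.765), the widest interval of the members tested, and leaving out 1 tumor at a time moved it between -0.28 and 0.0072.

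Fzd5 and Fzd8 form another pair of related receptors, and Fzd5 is known for its part in Paneth cells of the small intestine. Fzd5 ranged from 5.78 to 9.43 FPKM in control and from 6.97 to 12.2 in cKO tumors, with cKO tumors 1, 3 and 5 above all control tumors. Its log2 change was 0.23 (SE 0.16, 95% interval -0.14 to 0.59, limma adjusted p = 0.432), and it was 0.13 without cKO tumor 5 and 0.14 without control tumor 4. Fzd8 ranged from 1.29 to 2.30 FPKM in control and from 1.28 to 2.09 in cKO tumors, nearly the same span, with a log2 change of 0.055 (SE 0.14, 95% interval -0.25 to 0.36, limma adjusted p = 0.849). Leaving out 1 tumor at a time moved the Fzd8 change between 0.0054 and 0.14.

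Fzd4 is the receptor of Norrin as well as of Wnts and is best known in blood vessels. Its control values were 1.16, 1.19, 1.64, 1.19 and 0.782 FPKM. Its cKO values were 1.69, 2.43, 2.31, 1.71 and 1.37 FPKM. Thus 4 of 5 cKO tumors were above all control tumors and the groups overlapped through cKO tumor 5. The ratio of means was 1.59. The log2 change was 0.40 (SE 0.14, 95% interval 0.086 to 0.72, limma adjusted p = 0.103, exact permutation p = 0.0159 before adjustment). Without cKO tumors 2 and 3, its highest values, the change was 0.25 (limma adjusted p = 0.358). The summed level of the 6 endothelial markers ranged from 19.6 to 47.7 FPKM in control and from 18.8 to 50.6 FPKM in cKO tumors, with cKO tumors 2 and 3 highest in their group, as for Fzd4. Its part in the Fzd4 values was not tested.

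Fzd3 and Fzd6 are receptors mainly tied to planar cell polarity, a branch of Wnt signalling that orients cells without β-catenin. Fzd6 had the most negative log2 change of the members tested, with means of 11.1 ± 1.56 FPKM in control and 7.89 ± 2.33 in cKO tumors (SD, n = 5 each). Its control values were 13.1, 10.2, 10.1, 12.5 and 9.70 FPKM. Its cKO values were 6.29, 10.4, 10.5, 6.22 and 6.07 FPKM. The cKO tumors therefore fell into a low set of 3, tumors 1, 4 and 5, below every control tumor, and tumors 2 and 3, inside the control range. The log2 change was -0.48 (SE 0.17, 95% interval -0.86 to -0.096, limma adjusted p = 0.108, exact permutation p = 0.0794 before adjustment). Without cKO tumors 2 and 3, which stood apart by Krt5, the change was -0.74 (limma adjusted p = 0.00901) and Fzd6 was the 1 member called, where 6.63% of 16599 genes were called in either direction and 2.69% as lower. The summed level of 8 squamous markers was 1025 and 1340 FPKM in cKO tumors 2 and 3, between 15.05 and 58.4 FPKM in cKO tumors 1, 4 and 5, and between 48.7 and 218 in control tumors. Those 2 tumors thus had both the highest squamous marker level and the highest Fzd6 level among the cKO tumors, whereas control tumors had the Fzd6 level without that squamous level. The part of these cells in the Fzd6 values was not tested.

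**Figure D3:**
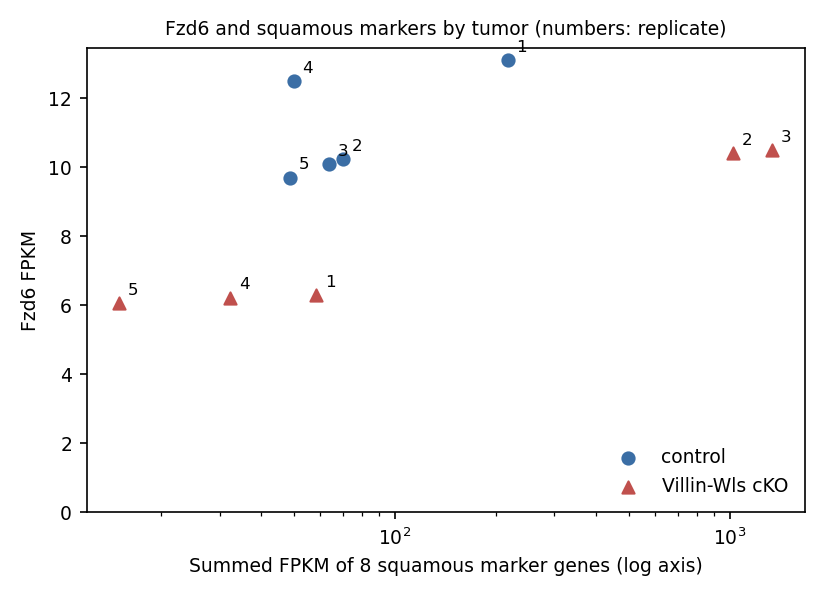
Fzd6 FPKM of each tumor against the summed FPKM of 8 markers of stratified squamous epithelium, on a log x axis; each point is 1 of the 10 tumors. The cKO tumors 2 and 3 stand at the far right, at 10.4 and 10.5 FPKM of Fzd6, and the other 3 cKO tumors stand lowest, at 6.07 to 6.29 FPKM.

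Fzd3 was the lowest of the members. It measured 0.191, 0.455, 0.358, 0.336 and 0.251 FPKM in the control tumors and 0.485, 0.841, 0.535, 0.851 and 0.406 FPKM in the cKO tumors. Only cKO tumor 5 lay inside the control range, and the ratio of means was 1.96. The gene missed the filter, with a mean of 0.471 FPKM over the 10 tumors, and has no value in the test. In the fit without the filter its log2 change was 0.29 (SE 0.12, 95% interval 0.026 to 0.56, limma adjusted p = 0.154), which did not pass.

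Fzd5 and Fzd6 stood in opposite order in the groups. Fzd6 exceeded Fzd5 in all 5 control tumors, and Fzd5 exceeded Fzd6 in 4 of 5 cKO tumors, with cKO tumor 2 the exception and cKO tumor 3 nearly equal at 10.5 FPKM for both. This is a description of levels, and neither gene passed the test.

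Lrp5 and Lrp6, the co-receptors, had the smallest spread of the members, with an SD of log2(FPKM + 1) over all 10 tumors of 0.15 and 0.12. Lrp6 measured 12.5, 14.2, 13.9, 14.0 and 13.4 FPKM in control tumors. In cKO tumors it measured 11.7, 10.9, 11.4, 12.8 and 13.0 FPKM. Thus 3 of 5 cKO tumors were below all control tumors. The log2 change of Lrp6 was -0.18 (SE 0.073, 95% interval -0.34 to -0.013, limma adjusted p = 0.16, exact permutation p = 0.0238 before adjustment). With every tumor rescaled to the same FPKM sum the change was -0.076 (limma adjusted p = 0.691), and without cKO tumors 2 and 3 it was -0.11 (limma adjusted p = 0.465). Lrp5 measured 35.5, 37.1, 47.5, 36.7 and 34.3 FPKM in control tumors and between 32.1 and 36.2 in cKO tumors, so that control tumor 3 stood far above the other 9. Its log2 change was -0.13 (SE 0.088, 95% interval -0.33 to 0.064, limma adjusted p = 0.391), and without control tumor 3 it was -0.052. The ratio of Lrp5 to Lrp6 stayed in the same range, 2.81 ± 0.359 in control and 2.91 ± 0.269 in cKO tumors (SD, n = 5 each).

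Fzd9 and Fzd10 complete the Frizzled family, and with Smo, the Hedgehog transducer of the same class, they formed a list of 3 genes of which 1 was called lower. Fzd10 measured 10.8, 8.14, 11.9, 11.04 and 14.3 FPKM in control tumors and 2.16, 3.40, 3.31, 1.49 and 1.31 FPKM in cKO tumors. Every cKO tumor was below every control tumor, which held for 4.76% of all genes tested, and the log2 change was -1.91 (SE 0.21, limma adjusted p = 0.000358). Its KTXXXW site opens its variable part with the same ctg codon as those of Fzd1, Fzd2, Fzd5 and Fzd7.
Fzd10 (chr5:128602796-128602813, plus strand): AAGACCctgcagtccTGG
Fzd9, named after its values were seen, was higher in all 5 cKO tumors than in any control tumor, with means of 0.364 ± 0.10 and 0.958 ± 0.392 FPKM (SD, n = 5 each). Its log2 change of 0.50 (SE 0.15, limma adjusted p = 0.0554) did not pass, and the call depended on the fit. It passed in 4 of 21 alternatives, which were the fit with no variance trend (limma adjusted p = 0.0382), a pseudocount of 0.1 (0.0461), tumor quality weights (0.0486) and the fit without cKO tumor 3 (0.0401).

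The summed level of the 8 Frizzled members was 46.5 ± 2.72 FPKM in control and 47.4 ± 6.02 in cKO tumors (SD, n = 5 each), a difference smaller than the spread. With Fzd9 and Fzd10 added it was 58.15 ± 4.39 and 50.7 ± 6.70 FPKM. Within that total of 10 Frizzled genes, Fzd10 made up 14.8% to 22.2% in control and 2.91% to 6.15% in cKO tumors. Fzd1 made up 22.6% to 28.0% in control and 29.9% to 38.1% in cKO tumors. Shares of 1 total move against each other, so the higher share of Fzd1 includes the lower level of Fzd10. Among the 8 members alone the share of Fzd1 was 29.3% to 35.1% and 32.5% to 40.6%, with overlap, and that of Fzd6 was 19.4% to 29.2% in control and 13.9% to 20.5% in cKO tumors.

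**Figure D4:**
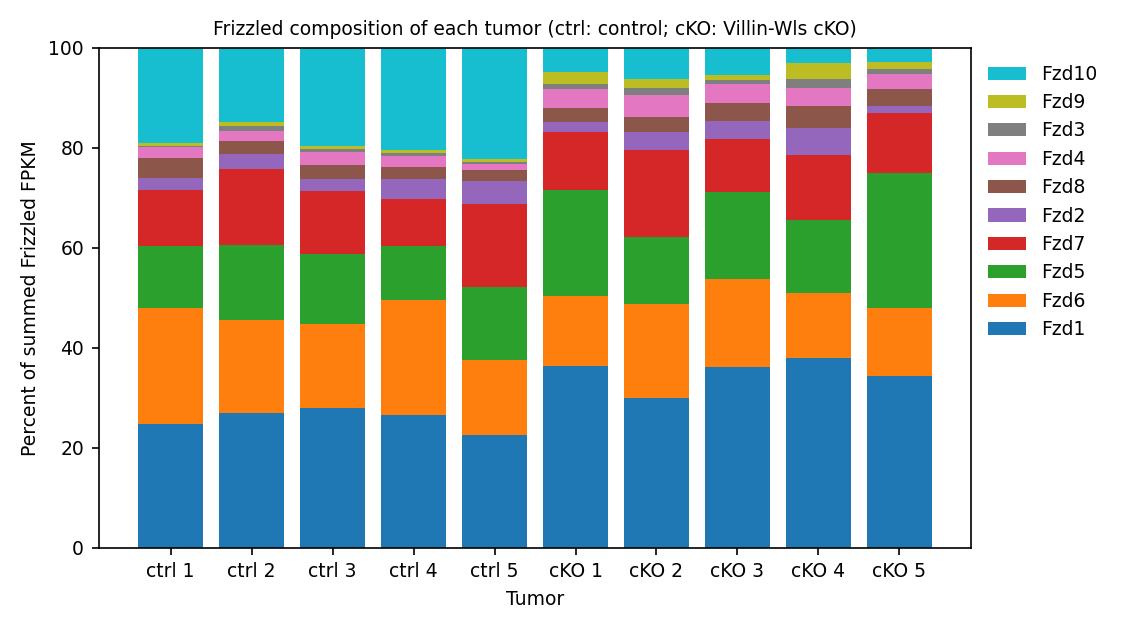
Percent of the summed FPKM of 10 Frizzled genes (the 8 members with Fzd9 and Fzd10) taken by each gene in each tumor, as stacked bars from 0 to 100%. Fzd10 takes 14.8% to 22.2% of the bar in control and 2.91% to 6.15% in cKO tumors. Fzd1 takes the largest share in every tumor of both groups.

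Around the receptors, each list of regulators and ligands held from 1 to 4 called genes, which are named below with the number tested. Their counts stand against 4.75% of all genes tested called lower and 6.12% called higher, a split that turns with the scaling as given above. The E3 ligase Znrf3, which removes Frizzled from the membrane, fell in all 5 cKO tumors below all control tumors (18.3 ± 2.81 to 10.7 ± 1.16 FPKM, log2 change -0.71, limma adjusted p = 0.00296). Its relative Rnf43, named after its values were seen, had the same log2 change of -0.71 and did not pass (limma adjusted p = 0.0857). Rnf43 passed in 2 of 22 alternatives, with a replicate block (limma adjusted p = 0.0196) and without cKO tumor 1 (-0.88, limma adjusted p = 0.0263). Without control tumor 1, which had its highest value, the change was -0.56 (limma adjusted p = 0.16). Znrf3 was the 1 gene called of 5 tested for receptor turnover. Among the LRP antagonists 2 of 4 were called, both lower. These were Kremen1, which helps Dkk proteins to take LRP6 off the membrane (16.6 ± 0.771 to 11.1 ± 2.34 FPKM, -0.56, adjusted p = 0.0165), and Apcdd1, a membrane inhibitor and Wnt target gene (-1.92, adjusted p = 0.0027). Of 5 Wnt-binding antagonists, Notum, which strips the lipid from Wnt, was lower (-0.93, adjusted p = 0.00109) and Sfrp1, a secreted Frizzled-like decoy, was higher (1.39, adjusted p = 0.0287). Sfrp1 was not called without cKO tumors 2 and 3 (0.92, adjusted p = 0.114) or in 6 of the fits that left out 1 tumor (1.21 to 1.39), namely control tumor 1, 2 or 4 or cKO tumor 2, 3 or 4, and Kremen1 was not called (-0.45, adjusted p = 0.0567) once FPKM sums were set equal. All p values in this paragraph are from limma over all genes.

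Of 9 genes for receptor partners and trafficking, 2 were lower and 1 higher. Tspan12, the tetraspanin that works with Fzd4, fell from 142.5 ± 17.1 to 90.9 ± 16.3 FPKM (log2 change -0.65, limma adjusted p = 0.0111), while the mean of Fzd4 itself was higher in cKO tumors. The FPKM of Tspan12 is identical to that of RP24-169J24.1, so the reads of these names cannot be told apart. Lypd6, a partner of LRP6, fell from 2.66 ± 1.04 to 0.620 ± 0.616 FPKM (-1.20, limma adjusted p = 0.0153). Atp6ap2, an adaptor between LRP6 and the proton pump, rose from 54.7 ± 2.59 to 66.4 ± 2.63 FPKM (0.28, limma adjusted p = 0.0106). Without cKO tumors 2 and 3, Tspan12 (-0.53, limma adjusted p = 0.0521) and Lypd6 (-1.06, limma adjusted p = 0.0851) were no longer called, with changes of similar size. With FPKM sums set equal, Tspan12 was -0.55 (limma adjusted p = 0.0561). After quantile normalization Atp6ap2 was 0.20 (limma adjusted p = 0.05275) and was not called.

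Of the 4 alternative Wnt receptors tested, 1 was called, the pseudokinase Ptk7 of planar cell polarity (log2 change -0.64, limma adjusted p = 0.00458). Of 16 genes of the intracellular complex below the receptors, 4 were called lower by limma and the others were not called, with a median change of -0.063 and 5 at an unadjusted p under 0.05. They were the scaffold and Wnt target Axin2 (-0.71, limma adjusted p = 0.00121), the kinase Csnk1e (-0.63, 0.00691), Dvl2, 1 of the Dishevelled proteins that dock on the KTXXXW site (-0.48, 0.0236), and Ctnnb1, which encodes β-catenin (-0.31, 0.0249). Dvl2 shares its values with Mir324 and Ctnnb1 with mmu-mir-7090. Rescaling every tumor to the same FPKM sum left 1 of these 4, Axin2, called as lower. Ctnnb1 was also not called without cKO tumors 2 and 3 (-0.25, limma adjusted p = 0.106), with a replicate block (-0.31, limma adjusted p = 0.0651) or without control tumor 2, 4 or 5 or cKO tumor 3. Dvl2 was not called without control tumor 2 or 5 or cKO tumor 1, 3 or 5, with changes from -0.48 to -0.43. In the wider LDL receptor family of Lrp5 and Lrp6, 2 of 10 were called lower, Lrp4 (-0.48, limma adjusted p = 0.0291) and Lrp12 (-0.44, limma adjusted p = 0.0257). After that rescaling they were -0.38 (limma adjusted p = 0.116) and -0.33 (0.127). Without cKO tumors 2 and 3 they were -0.48 (limma adjusted p = 0.104) and -0.49 (0.0608), as large as with them but not called. Leaving out 1 tumor also ended the call of Lrp4 (control tumor 2 or 5, or cKO tumor 2, 3 or 4) and of Lrp12 (control tumor 4 or 5, or cKO tumor 1 or 3), and the replicate block that of Lrp12 (limma adjusted p = 0.0644). Of the 11 Wnt ligands tested, 4 were called lower by limma, and the median change of the 11 was -0.43. The 4 were Wnt10a (-1.88, limma adjusted p = 0.000473), Wnt7a (-1.71, 0.00388), Wnt6 (-1.41, 0.0013) and Wnt5b (-0.79, 0.0195). An unadjusted limma p under 0.05 was reached by 6 ligands. Of these 6, Wnt3, named after its values were seen, was higher in cKO tumors (0.55, limma adjusted p = 0.0687).

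**Figure D5:**
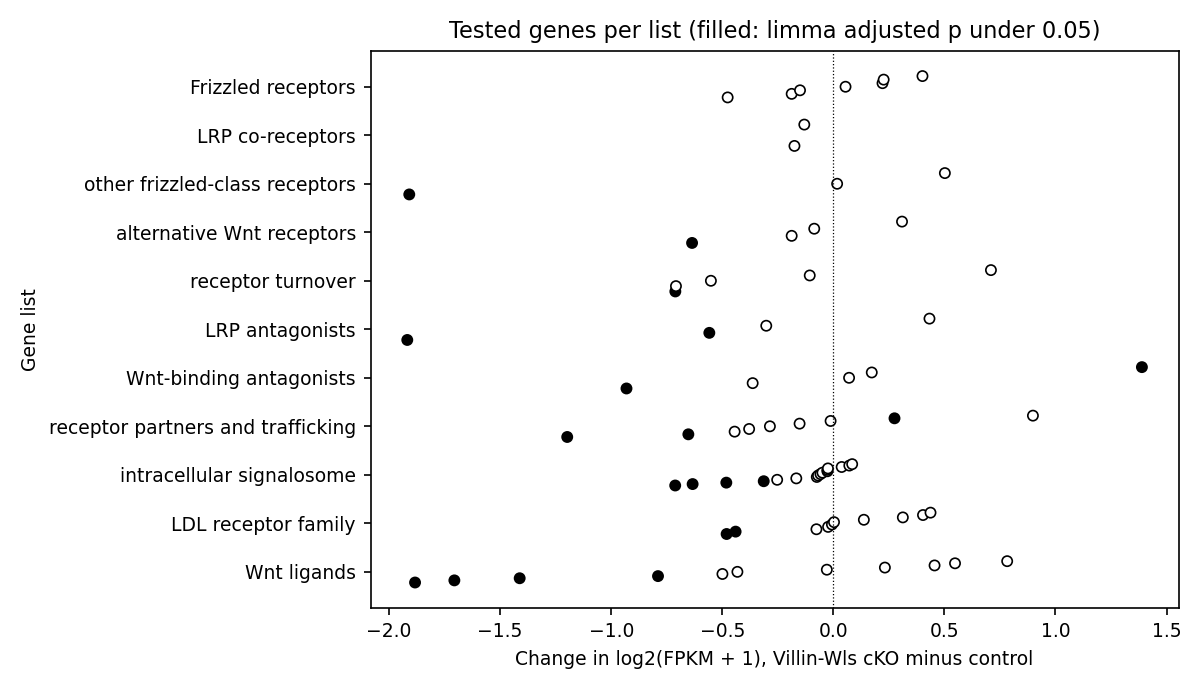
Log2 change (cKO minus control, log2(FPKM + 1) scale) of each tested gene, by list, from the receptors through their regulators and the intracellular complex to the Wnt ligands; each point is 1 gene and filled points passed limma's adjusted p under 0.05. The points of the Frizzled receptors and LRP co-receptors are all open and lie between -0.48 and 0.40.

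The genes closest to a member in profile were sought over the 10 tumors, by the root mean square difference of log2(FPKM + 1) after centring, for the 3 members with the highest spread. Fzd6 was nearest to Lama5 and Mir7005, which share identical values, at 0.1355 and then to BC029722 at 0.1446. Fzd7 was nearest to Ptma at 0.1606, Map1s at 0.1696 and 2310039H08Rik at 0.1773. Fzd2 was nearest to Cd68 at 0.224, Vat1 at 0.2333 and Dusp7 at 0.235. These values describe 10 tumors and carry no test.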

How the data were processed

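Total RNA of 10 colon tumors was sequenced from stranded mRNA libraries. Per the labels and methods, read quality was inspected by the authors with FastQC, alignment to GRCm38.p5 was done by TopHat2 2.1.1, and Cufflinks 2.2.1 with Cuffdiff gave the levels. The deposited values are FPKM, 1 column per tumor, and 0 columns were left unassigned. The annotation release is not given in the sources used here. FPKM sums per tumor ran from 1207683 to 1533885, and precision rests on the spread between tumors, which may not come from separate mice.

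Groups and replicate numbers came from the labels. Control and cKO tumors were compared on log2(FPKM + 1), with a pseudocount of 1, which understates changes of low genes, by limma 3.58.1 (R 4.3.3). A gene entered where its mean over the tumors reached 0.5 FPKM, with an eBayes variance trend, no covariate, two-sided p-values and Benjamini-Hochberg adjustment over 16757 genes at 0.05. Two-sided exact permutation tests over the tumors had a smallest possible p of 0.00794. In simulated data on 16757 genes, changed genes were drawn only from those with a mean of at least 5 FPKM. Of these, 82 of 100 changed by 1 on the log2 scale and 95 of 100 changed by 2 were recovered. There were 14 false calls among the unchanged genes. Changes of lower genes, or changes under 1, were not simulated, so recovery for such members is not known. The members and lists were chosen with earlier results of these data known. Named genes are all members, Wls, up to 4 called genes per list and the 3 nearest genes by profile for 3 members. Gene models and sequences were read from GENCODE M21. There were 22 alternative fits, which varied the scaling, filter, pseudocount, variance model, replicate block and tumors.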

Additional observations from a re-analysis of the deposited data

Results flagged for a closer look

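Dixon's test was applied to each group of 5 tumors for 33 named genes, 66 groups in all. In 8 of these groups, 1 tumor stood beyond the test's 95% critical value of 0.71 for the gap to the nearest tumor over the range. Some tumors were flagged for more than 1 gene. Chance flags about 1 in 20 groups. Among the receptors, control tumor 3 had 16.9 FPKM of Fzd1, against 14.0 to 14.8 in the other control tumors (gap over range 0.714). The same tumor had 47.5 FPKM of Lrp5, against 34.3 to 37.1 (0.786). In cKO tumor 2, Fzd7 was 9.56 FPKM, against 5.31 to 6.31 in the other cKO tumors (0.765).

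Outside the receptor set, control tumor 3 had 112.9 FPKM of Tspan12, lower than the 144.9 to 154.4 of the other control tumors. Control tumor 1 had 25.3 FPKM of Rnf43, against 14.0 to 15.7. In cKO tumor 5, Lypd6 was 1.69 FPKM, against 0.177 to 0.544 in the others. In cKO tumor 4, Wnt10a was 6.70 FPKM, against 14.2 to 15.5, and Wnt7a was 1.55 FPKM, against 0.0803 to 0.326.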

How the results depend on the processing

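Of 215 alternative tests of the 9 receptor genes in the main test and of Fzd3 where it was tested, 2 turned the direction and 1 passed the threshold. Fzd2 was 0.0072 without cKO replicate 5, and 0.31 as a log2 ratio of median FPKM with no test. Fzd8 was -0.014 after quantile normalization. Without cKO tumors 2 and 3 together, 1 receptor gene (Fzd6) and 1101 of all genes were called. Leaving out 1 tumor at a time gave 0 receptor genes called and 1229 to 1986 of all genes. The Fzd2 change then ran from -0.28 to 0.0072. Deviations from the group mean correlated between same-numbered tumors at -0.0868 to 0.162, and pairing by number was not used in the main fit. These low values cannot exclude handling shared by number. With a replicate block 1627 genes were called, of which 0 were receptor genes. Fzd10 was called in 22 of 22 alternatives, with changes from -2.30 to -1.73, and Sfrp1 in 14 of 21. Sequencing depth is unknown, and levels near that of Fzd3 have no counting error to set beside them.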
